A study of Gallus gallus with 30 samples.

Results

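The genes of the connective tissue matrix were followed in the breast muscle of meat-type and egg-type chickens from 1 d to 8 w after hatch. They comprise the collagens, the laminin chains, the nidogens NID1 and NID2, the small proteoglycans DCN, LUM and BGN, the glycoproteins FN1, SPARC, POSTN and TNC, and FBN1, ELN and LOX. Members were picked by gene symbol, and the cartilage collagens COL2A1, COL9A1, COL9A2, COL9A3, COL10A1 and COL11A1 were left out. Earlier results of these data were known when the group was chosen, so that counts over it are descriptions. Of the 13009 genes with 1 symbol on the array, 58 were members. A probe set is the group of probes on the array that measures 1 transcript, and each gene was read from the probe set with the highest mean over all arrays. The 58 genes had 162 probe sets, and 16 genes had only 1. All 58 were tested without a filter, and 52 lay above the median signal of all probe sets. The other 6, LAMB4, LAMA1, COL25A1, COL27A1, COL6A6 and LAMB3, lay below it, so that their signals are dim.

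Pectoralis major was taken from male broilers of the Arbor Acres breed (AA in the labels), which are bred for meat, and from male White Leghorn layers, which are bred for eggs. Sampling was at 1 d and then at 2 w, 4 w, 6 w and 8 w. For each line and age, RNA from 5 males went into 1 pool, and each of the 10 pools was hybridised to 3 Affymetrix Chicken Genome Arrays. The pools were taken as the replicates, so that the birds' own spread is not seen and the 3 arrays of a pool show technical spread only. Both lines ate the same diet, one made for layers. The chicks at 1 d were kept warmer and under constant light, so that age and housing cannot be told apart.

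Muscle is bound together by a matrix of stiff collagen fibrils around fibres and bundles and by a thin basement membrane on each fibre. Fibrillar collagens carry the load, and collagens and proteoglycans on the fibril surface set fibril width and spacing. Collagen VI forms beaded filaments beside the basement membrane, whose own sheet is built of collagen IV and laminins linked by nidogens. Fibroblasts make most of the fibrillar collagen, and the genes of collagen IV lie in head-to-head pairs in vertebrates.

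The 30 arrays had medians of 4.08 to 4.19 on the log2 scale, and the 3 arrays of a pool correlated at 0.977 to 0.994 over all probe sets. Of 12 markers of muscle fibres, 11 lay above the median signal, and MYL1, TNNI2, TNNT3 and TPM1 had means of 13.2 to 13.4. One pool stood apart: cartilage and bone transcripts were high in the layer pool at 1 d. The summed linear signal of 19 such markers was 1838 there, 725 in broilers at 1 d and 347 to 445 in the 8 later pools. COL10A1, a collagen of mineralising cartilage, had pool means of 7.44, 2.76, 2.47, 2.48 and 2.61 in layers from 1 d to 8 w and 3.17, 2.79, 2.52, 2.46 and 2.47 in broilers. Members whose call at 1 d was lost with the broiler pools alone are therefore named with each role. For the members, the SD over the 3 arrays of a pool had a median of 0.147, with a highest value of 1.03 for SPARC in layers at 6 w.

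Matrix genes were mostly higher at 1 d than later in both lines. Of the 58 members, 38 were called higher at 1 d than at the 4 later ages and 4 lower, with 16 not called (limma on the 10 pool means with age and line, 2 pools at 1 d against 8 later, adjusted p under 0.05). Over all 38439 probe sets, 17.9% were called higher at 1 d and 17.1% lower. Among the 19219 probe sets above the median signal the shares were 26.8% and 22.7%. The median log2 difference of the members was 0.63, and that of all probe sets was -0.05. In muscle of mixed cells, fewer cells of a type and less RNA per cell cannot be told apart.

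Both pools at 1 d lay above all 8 later pools for 37 members, a pattern held by 16.8% of all probe sets, and below all of them for 6 members, against 20.9% of all probe sets. The 58 probe sets together made up 1.62% of the summed linear signal of all probe sets in broilers at 1 d and 1.53% in layers at 1 d. In the later pools they made up 0.915% to 1.18%. With the broiler pools alone, 24 members were called higher at 1 d and 3 lower, beside 10.2% and 5.67% of all probe sets. With the layer pools alone 31 and 2 were, beside 9.4% and 4.39%. Each of these fits has 1 pool at 1 d and 4 later. In broilers alone 15 calls were lost, and all 15 genes kept their direction. In layers alone the calls of COL3A1, DCN, POSTN, COL4A1, COL4A2, COL4A3, LAMA5, FBN1, COL17A1 and COL27A1 were lost. These genes kept their direction as well.

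**Figure D1:**
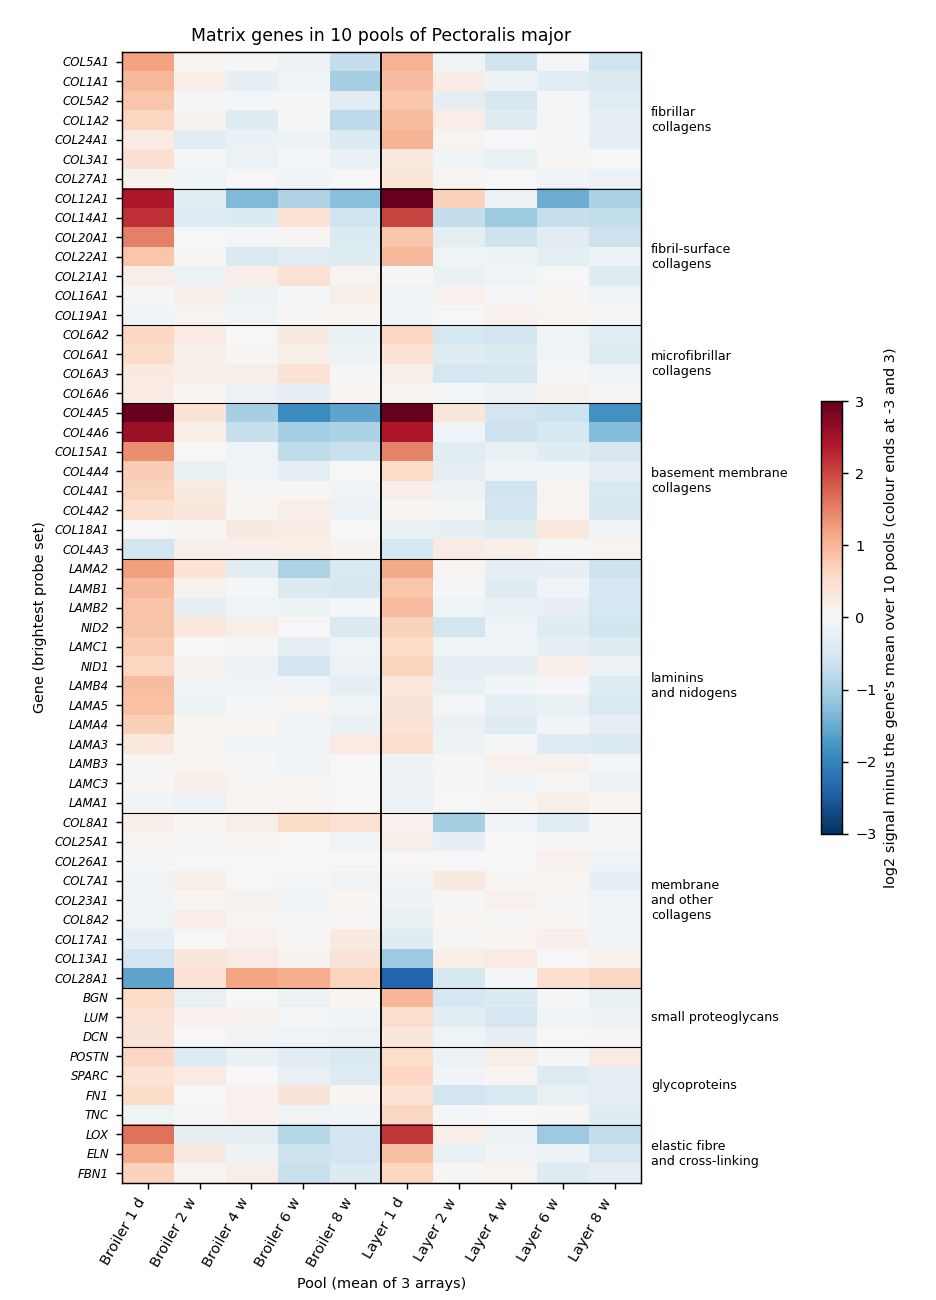
Heat map of the 58 matrix genes (rows, grouped by role) in the 10 pools (columns, broilers left and layers right), coloured by log2 signal minus the gene's own mean over the pools, with colour ending at -3 and 3. The columns of 1 d are red in most rows in both lines, while COL28A1 and COL13A1 are blue there.

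The fibrillar collagens form the fibrils themselves, and all 7 were called higher at 1 d, by 1.22-fold to 2.64-fold. COL1A1, the main chain of collagen I of tendon, skin and muscle sheaths, had pool means of 12.91, 12.13, 11.69, 11.82 and 10.96 in broilers from 1 d to 8 w. In layers they were 12.88, 12.17, 11.80, 11.61 and 11.53. Both pools at 1 d lay above all later ones, and the difference was 1.18 ± 0.13 (SE), or 2.27-fold, with an adjusted p of 0.000137.

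COL1A2, the second chain of collagen I, differed by 0.99 ± 0.11 and the chains of collagen V, which starts fibrils and limits their width, by 1.40 ± 0.13 for COL5A1 and 1.03 ± 0.12 for COL5A2 (adjusted p = 0.000169, 6.84e-05 and 0.000202). COL3A1, which makes the fine fibrils of loose tissue, changed less. It had pool means of 13.00, 12.51, 12.37, 12.48 and 12.34 in broilers and 12.84, 12.47, 12.34, 12.58 and 12.53 in layers and differed by 0.47 ± 0.08 (adjusted p = 0.00199). COL24A1 and COL27A1, minor fibrillar chains of developing bone and cartilage, differed by 0.80 ± 0.13 and 0.29 ± 0.09, and for COL24A1 the excess at 1 d was 1.09 in layers and 0.52 in broilers. With the broiler pools alone 4 of the 7 were called, and COL1A1, COL1A2 and COL27A1 were not, at 1.26, 0.92 and 0.16 (adjusted p = 0.0599, 0.0845 and 0.311).

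Among the collagens on the fibril surface, 4 of 7 were called higher at 1 d and none lower. COL12A1, which bridges collagen I fibrils in tendon and muscle sheaths, had pool means of 9.03, 6.27, 5.27, 5.70 and 5.35 in broilers. The layer pools were at 9.87, 7.29, 6.43, 5.12 and 5.66. The difference of 3.56 ± 0.28 was 11.8-fold (adjusted p = 2.11e-05), and both pools at 1 d stood above every later pool. COL14A1, a partner of decorin on fibrils, was at 7.37, 4.79, 4.78, 5.61 and 4.58 in broilers and 7.22, 4.47, 4.09, 4.49 and 4.45 in layers. It fell between 1 d and 2 w in both lines, and the broiler pool at 6 w lay above all other later pools. Its difference was 2.63 ± 0.18 or 6.2-fold (adjusted p = 9.25e-06).

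COL20A1, a collagen of cornea and tendon in the chick embryo, differed by 1.45 ± 0.12, and COL22A1, of the junction between muscle and tendon, by 1.12 ± 0.10 (adjusted p = 2.69e-05 and 5.62e-05). The other probe sets of COL22A1, at 4.23 beside 4.81 for the brightest, had -0.07 and -0.02 and were not called. COL16A1, COL19A1 and COL21A1 had differences of -0.11, -0.13 and 0.08 and were not called. For COL16A1 and COL19A1 a dimmer probe set was called higher at 1 d, by 1.45 and 1.77.

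Of the microfibrillar collagen VI chains, whose loss causes muscular dystrophy in humans, 2 of 4 were called higher at 1 d. COL6A1 differed by 0.62 ± 0.10 and COL6A2 by 0.79 ± 0.14 (adjusted p = 0.00151 and 0.0026). COL6A3, which completes the same trimer, did not pass with 0.27 ± 0.14 (adjusted p = 0.154). Its change from 1 d was 0.07 in broilers and 0.47 in layers, signed as 1 d minus later ages. COL6A6, with a signal below the median, had 0.21. In the fit to broilers none of the 4 was called, and COL6A1 and COL6A2 had 0.50 and 0.55 (adjusted p = 0.0963 and 0.116).

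The basement membrane collagens held the largest change of all members. COL4A5, a chain of collagen IV, had pool means of 9.07, 6.17, 4.76, 3.85 and 4.18 in broilers from 1 d to 8 w. Layers went through 9.17, 6.10, 5.19, 5.10 and 3.94. Both pools at 1 d lay far above all later pools, and the SD over the arrays of a pool was 0.1 to 0.27. The difference was 4.21 ± 0.23 (SE), which is 18.5-fold, with an adjusted p of 3.39e-06.

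COL4A6, whose chain joins that of COL4A5 in the sheet around smooth muscle and other cells in mammals, ran alongside it. Its pool means were 8.22, 5.79, 4.93, 4.61 and 4.67 in broilers and 8.06, 5.51, 5.00, 5.14 and 4.32 in layers. That is 3.14 ± 0.16 or 8.83-fold (adjusted p = 1.86e-06). Of the other chains, COL4A1 and COL4A2, which make the common sheet of all basement membranes, were higher at 1 d by only 0.55 ± 0.13 and 0.35 ± 0.11 (adjusted p = 0.0102 and 0.0346). COL4A4 differed by 0.82 ± 0.10 and COL4A3 by -0.68 ± 0.10, in opposite directions by their brightest probe sets (adjusted p = 0.000284 and 0.00106). The dimmer probe sets of COL4A3 had -0.10 and 0.01 and were not called. The call of COL4A3 was lost with the layer pools alone, at -0.65. The calls of COL4A1 and COL4A2 were lost with either line alone, with an adjusted p of 0.0702 and 0.247 in broilers.

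COL15A1, which anchors basement membranes of muscle fibres and small vessels to the fibrils beside them, had broiler pool means of 9.71, 8.31, 8.18, 7.56 and 7.64. Layer pools were at 9.80, 8.00, 8.12, 7.96 and 7.83. Both lines were high at 1 d only, with a difference of 1.80 ± 0.14 or 3.49-fold (adjusted p = 1.81e-05). COL18A1, its relative and the source of endostatin, was not called with -0.14 ± 0.13 (adjusted p = 0.439).

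Of 13 laminins and nidogens, 10 were called higher at 1 d and none lower. LAMA2, the alpha chain of the muscle fibre laminin, was at 10.03, 9.22, 8.46, 7.87 and 8.35 in broilers and 9.94, 8.88, 8.53, 8.56 and 8.18 in layers. Its difference was 1.48 ± 0.17 or 2.79-fold (adjusted p = 0.000216), and all pools at 1 d lay above the later ones. LAMB1 and LAMC1, the beta and gamma chains that pair with it, differed by 1.14 ± 0.12 and 0.82 ± 0.09. LAMB2, of the nerve and muscle junction, differed by 1.10 ± 0.13. LAMA4, of vessels and the embryonic fibre, differed by 0.71 ± 0.12 and LAMA5 by 0.78 ± 0.12. The linkers NID1 and NID2 differed by 0.82 ± 0.17 and 0.97 ± 0.14, LAMA3 by 0.53 ± 0.15 and the dim LAMB4 by 0.79 ± 0.11. Adjusted p values of these 10 lay between 0.000116 for LAMB1 and 0.0217 for LAMA3. The dimmer probe sets of LAMB2, with -0.10, and of LAMB4, with -0.05 and -0.06, were not called. LAMA1, of the early embryo, LAMB3, of skin, and LAMC3 had differences of -0.17, -0.07 and -0.10 and were not called. NID1, NID2 and LAMA3 lost their call with the broiler pools alone, at 0.84, 0.85 and 0.30 (adjusted p = 0.0556, 0.0797 and 0.28).

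The membrane-bound and other collagens are those left after the other roles. Of these 9 none was called higher at 1 d, 3 were called lower and 6 were not called. Over all probe sets 17.9% were called higher and 17.1% lower, and above the median signal 26.8% and 22.7%. COL28A1, which in the mouse lies around Schwann cells of peripheral nerve, had pool means of 5.56, 7.57, 8.33, 8.23 and 7.81 in broilers from 1 d to 8 w. In layers it stood at 4.77 at 1 d and then at 6.66, 7.09, 7.64 and 7.76. The pool of each line at 1 d was the lowest of that line. The difference was -2.47 ± 0.19 (SE), 5.53-fold lower at 1 d (adjusted p = 1.93e-05), and its other 2 probe sets were called lower as well, by -0.51 and -1.73.

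COL13A1, a membrane collagen of the nerve and muscle junction, was at 10.04, 10.95, 10.86, 10.71 and 10.99 in broilers and 9.52, 10.81, 10.84, 10.61 and 10.73 in layers. It was lower at 1 d by -1.03 ± 0.11 (adjusted p = 0.000111), but its probe sets disagreed. Those at 5.58 and 2.78 were called higher at 1 d, by 0.66 and 1.05. The mean over its 6 probe sets gave 0.08. COL17A1, which anchors skin, was lower by -0.39 ± 0.11 (adjusted p = 0.0208), a call lost with either line alone (adjusted p = 0.126 in broilers). COL7A1, COL8A1, COL8A2, COL23A1, COL25A1 and COL26A1 had differences of -0.22 to 0.18 and were not called. Of the dimmer probe sets of COL23A1, that at 3.31 was called higher at 1 d by 0.93 and that at 3.87 lower by -0.25. Dimmer sets of COL8A1 and COL26A1 were called lower, by -0.45 and -0.16.

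All 3 small proteoglycans, which coat fibrils and bind growth factors, were called higher at 1 d. DCN differed by 0.45 ± 0.09, LUM by 0.60 ± 0.14 and BGN by 0.97 ± 0.16 (adjusted p = 0.0049, 0.00954 and 0.0017). Among the glycoproteins, FN1, the cell-binding fibronectin, differed by 0.62 ± 0.11, SPARC, which helps collagen assembly, by 0.65 ± 0.11, and POSTN, of growing and healing tissue, by 0.72 ± 0.13 (adjusted p = 0.00283, 0.00154 and 0.0021). LUM, FN1 and SPARC lost their call with the broiler pools alone, at 0.39, 0.42 and 0.51 (adjusted p = 0.135, 0.172 and 0.191). TNC, of tendon and muscle ends, had 0.31 ± 0.17 and was not called, with pool means at 1 d of 4.52 in broilers and 5.26 in layers.

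LOX, the enzyme that cross-links collagen and elastin, was called higher at 1 d together with both elastic fibre proteins. Its pool means were 8.03, 6.11, 6.10, 5.54 and 5.82 in broilers and 8.52, 6.57, 6.24, 5.30 and 5.67 in layers. The difference of 2.35 ± 0.16 was 5.11-fold (adjusted p = 8.73e-06), although the arrays of LOX spread by up to 0.934 (SD) within a pool. ELN, the elastin itself, differed by 1.27 ± 0.16 with an array SD of up to 0.986, and FBN1, the fibrillin on which elastin is laid down, by 0.84 ± 0.11 (adjusted p = 0.000393 and 0.000412). FBN1 was not called with either line alone (adjusted p = 0.101 in broilers).

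**Figure D2:**
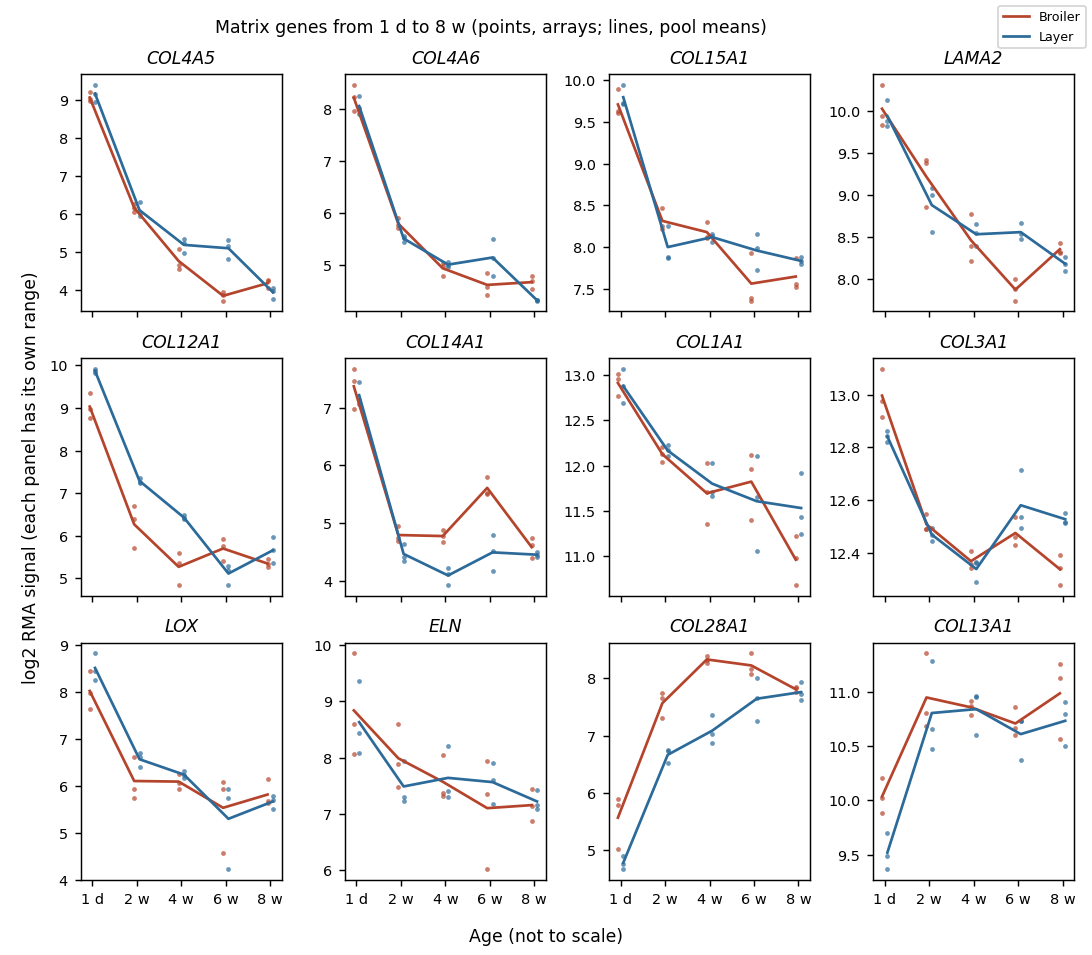
Log2 signal of 12 matrix genes against age (not to scale), with points for arrays and lines through pool means of broilers (red) and layers (blue). COL4A5, COL4A6, COL12A1 and COL14A1 drop steeply after 1 d in both lines, and COL28A1 climbs.

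Of the 42 members with over 1 probe set, the brightest was called at 1 d in 30, and in 2 of these, COL13A1 and COL3A1, another probe set was called the opposite way. The COL3A1 probe set lower at 1 d, by -0.75, is a dim one at 6.35 beside 12.5 for the brightest. In a further 5, COL8A1, COL16A1, COL19A1, COL23A1 and COL26A1, the brightest was not called but another was. Of all 162 probe sets, 91 were called higher at 1 d and 11 lower. The brightest probe sets of COL13A1 and COL4A3 carry the suffix that the maker gives to sets with probes shared by other sequences. Another suffix marks sets whose probes match several transcripts. The brightest sets of COL1A2, SPARC, FN1, NID2, BGN, LAMC3, LAMA3, COL21A1, COL4A4, COL26A1, COL6A6 and COL27A1 carry it.

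After 1 d few changes in the matrix genes passed the test. Between 2 w and 8 w 1 of 58 members was called in a slope per week, against 0.354% of all probe sets. COL4A5 fell by 0.34 per week (SE 0.05, 8 pools, adjusted p = 0.0221). Its second probe set was also called, with a slope of -0.29 per week (adjusted p = 0.0124). Dimmer probe sets of LAMA2 and LAMB1 were called too, with -0.13 and -0.14 per week (adjusted p = 0.0396 and 0.0473), while their brightest were not. Between 2 w and 8 w COL4A5 dropped by 1.99 in broilers and by 2.16 in layers on the log2 scale. It ended at 4.18 in broilers and 3.94 in layers, near the array medians of 4.08 to 4.19. With each line alone no member was called, nor with the mean over all probe sets of a gene.

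Next by adjusted p were slopes of -0.18 ± 0.03 per week for COL4A6 (adjusted p = 0.0667) and -0.14 ± 0.03 for COL1A1 (adjusted p = 0.0783). COL12A1 had -0.21 ± 0.06, LOX -0.13 ± 0.03 and FBN1 -0.09 ± 0.02 (adjusted p = 0.201, 0.174 and 0.167). Of the 58 slopes 41 were below 0, with a median of -0.01 per week beside -0.00221 for all probe sets. The 3 genes of elastic fibres and cross-linking and 12 of 13 laminins and nidogens were among those below 0, while the 3 small proteoglycans had slopes of 0.00 to 0.05.

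Over all 5 ages no member was called different between broilers and layers, against 1.35% of all probe sets (limma, 10 pool means, age and line in the model). At an unadjusted p under 0.05 there were 17 members, 14 of them higher in broilers, beside 5497 of 38439 probe sets. The median difference, broiler minus layer, was 0.05 for the members and 0.00394 for all probe sets, with 37 members above 0. A missed threshold does not show that the lines were alike. With the 30 arrays taken as independent samples 18 members were called, beside 10.4% of all probe sets. Without the pools of 1 d 2 were, FN1 and COL8A1, beside 1.98%.

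FN1 came closest to the threshold. Its pool means were 10.84, 10.26, 10.41, 10.67 and 10.33 in broilers and 10.72, 9.70, 9.82, 10.05 and 9.98 in layers. Arrays of the lines did not overlap from 2 w on, and the difference was 0.45 ± 0.09 (SE), or 1.36-fold, with an adjusted p of 0.0538. Another probe set of FN1 was called with 0.61 ± 0.10 (adjusted p = 0.0268). It is a dimmer set at 6.23 and carries the suffix for probes shared by other sequences. Of the 162 probe sets of the members 2 were called between the lines, this set and a set of COL8A1, beside 1.35% of all probe sets. Among the glycoproteins POSTN leaned the other way in its brightest probe set, with a difference of -0.29 ± 0.10 (adjusted p = 0.21). Its pool means were 11.58, 10.57, 10.76, 10.61 and 10.53 in broilers and 11.49, 10.79, 11.12, 10.91 and 11.19 in layers. The dimmer probe set of POSTN, at 7.33, had a difference of -0.001.

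COL28A1 had the largest difference in favour of broilers, 0.71 ± 0.15 (adjusted p = 0.0609). Its broiler pools were above the layer pools at each age, by 0.79 at 1 d, 0.90 at 2 w, 1.25 at 4 w, 0.58 at 6 w and 0.05 at 8 w. The gap was widest at 4 w and nearly gone at 8 w. COL8A1, a short-chain collagen of vessel walls, differed by 0.55 ± 0.14, and its second probe set was called with 0.64 ± 0.11 (adjusted p = 0.112 and 0.0294). Its dimmest probe set had 0.07 ± 0.08. In the brightest, the layer pool at 2 w, at 5.49, was the lowest of the 10 pools.

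The chains of the collagen VI trimer had broiler means above layer means without passing the test. COL6A3 had pool means of 11.26, 11.18, 11.18, 11.43 and 10.97 in broilers and 11.16, 10.46, 10.52, 10.93 and 10.88 in layers. Arrays did not overlap at 2 w, 4 w and 6 w. The differences were 0.32 ± 0.08 for COL6A1, 0.38 ± 0.11 for COL6A2 and 0.41 ± 0.11 for COL6A3, with adjusted p values of 0.104, 0.158 and 0.112. Among the basement membrane collagens COL4A1 differed by 0.37 ± 0.10 and COL4A2 by 0.37 ± 0.09 (adjusted p = 0.125 and 0.0812). Of the other COL4A2 probe sets, that at 6.93 had -1.03 ± 0.39 and the rest had 0.20 to 0.36. On the fibril surface COL20A1 had 0.42 ± 0.09, COL14A1 0.48 ± 0.14 and COL21A1 0.29 ± 0.08 (adjusted p = 0.0693, 0.145 and 0.143). NID2 differed by 0.38 ± 0.12 (adjusted p = 0.163).

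Members below 0 were fewer. COL12A1 had -0.55 ± 0.22, COL24A1 -0.32 ± 0.10, COL4A5 -0.30 ± 0.19 and COL1A2 -0.19 ± 0.09 (adjusted p = 0.299, 0.188, 0.551 and 0.377). The 7 fibrillar collagens had a median of -0.06, and 5 of them were below 0. DCN and COL3A1 differed by only -0.01 ± 0.07 and -0.01 ± 0.06. At all 5 ages the broiler pool was above the layer pool for 12 members and below it for 2, COL1A2 and COL24A1. The same patterns held for 6.68% and 6.33% of all probe sets. The 12 were COL6A3, COL13A1, COL6A1, COL4A2, FN1, NID2, COL28A1, COL20A1, COL8A1, LAMC3, COL14A1 and COL21A1.

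**Figure D3:**
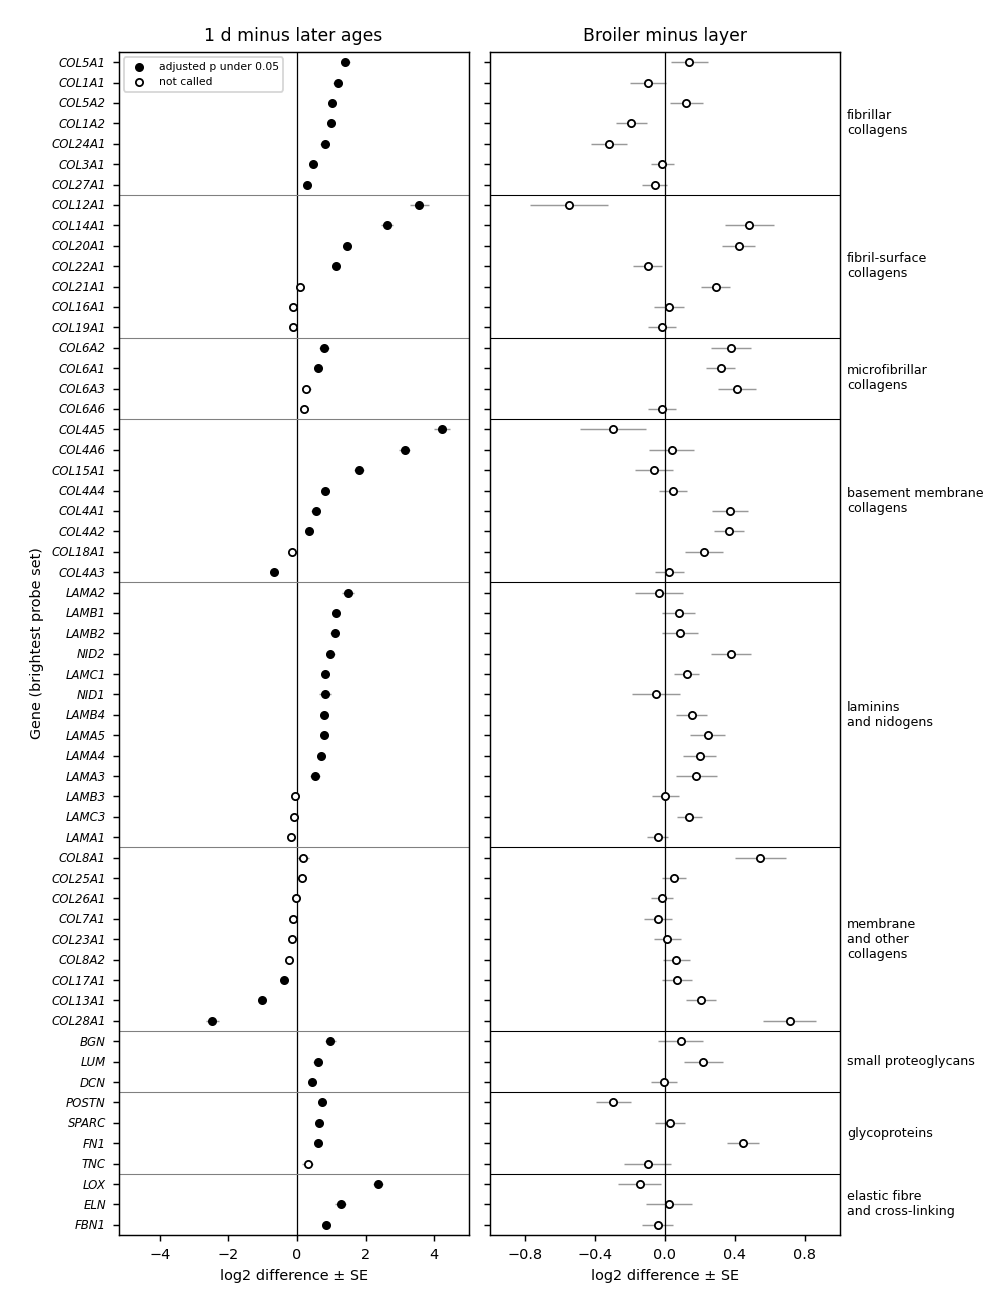
Log2 difference ± SE from the fit to 10 pool means for each matrix gene, 1 d minus later ages (left) and broiler minus layer (right, on a narrower axis), with filled points at an adjusted p under 0.05. On the left 38 points to the right of 0 and 4 to the left are filled, and on the right none is.

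**Figure D4:**
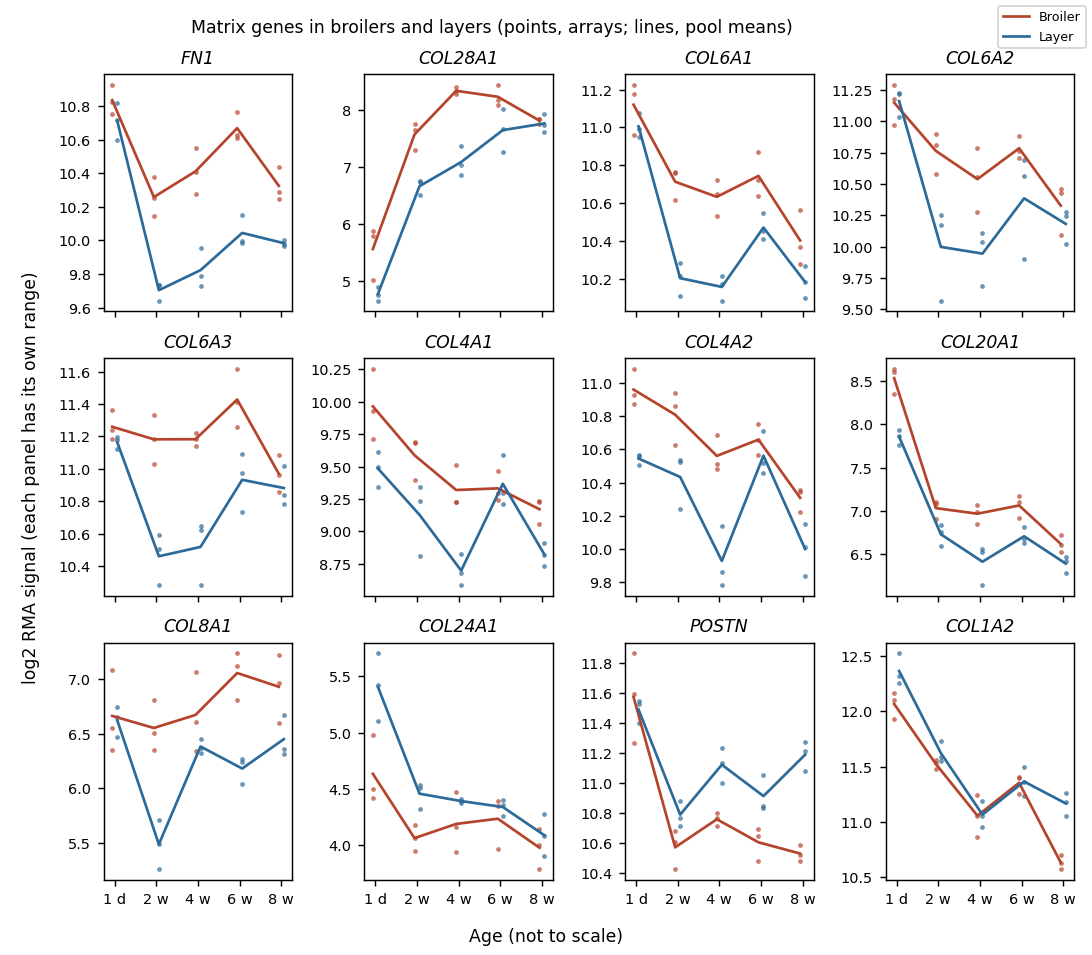
Log2 signal of 12 matrix genes in broilers (red) and layers (blue) against age (not to scale), with points for arrays and lines through pool means. FN1, COL28A1 and COL6A1 stay higher in broilers at each age, and COL24A1 and COL1A2 lower.

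At single ages there was 1 pool of each line and no test. At 1 d, 17 members had arrays of the lines that did not overlap, against 19.1% of all probe sets. The counts were 22 at 2 w (15.6% of all probe sets), 18 at 4 w (19.4%), 14 at 6 w (18.1%) and 20 at 8 w (21.3%). Higher in broilers were 10 of the 17 at 1 d, 18 of the 22 at 2 w and 16 of the 18 at 4 w. At 6 w 9 of the 14 were, and at 8 w 15 of the 20. Of all 58 members, overlapping or not, 38, 44, 34, 24 and 41 had the broiler pool above the layer pool from 1 d to 8 w. The like shares of all probe sets were 54.9%, 53.4%, 49.1%, 43.8% and 54.3%. At 6 w the median difference was -0.04 for the members and -0.03 for all probe sets.

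At 1 d the members lowest in broilers were COL12A1 at -0.84, COL24A1 at -0.77, TNC at -0.74, LOX at -0.49 and BGN at -0.45. The layer pool at 1 d is the one with the high cartilage and bone signal, whose part in these differences was not tested. Highest in broilers at 1 d were COL28A1, COL20A1, LAMB4, COL13A1 and LAMA5, by 0.79, 0.68, 0.61, 0.52 and 0.49.

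At 2 w COL12A1 had -1.02, LOX -0.46, COL24A1 -0.39, POSTN -0.22 and LAMA1 -0.18, while COL8A1, COL28A1, NID2, COL6A2 and COL6A3 were higher in broilers by 1.06, 0.90, 0.87, 0.77 and 0.72. At 4 w COL12A1 again was lowest with -1.16, followed by COL4A5, POSTN, COL22A1 and COL19A1 at -0.43 to -0.25. COL28A1 was 1.25 higher at that age, and COL14A1, COL6A3, COL4A2 and COL18A1 were 0.63 to 0.68 higher. COL12A1 was thus lower in broilers at 1 d, 2 w and 4 w.

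At 6 w COL12A1 turned, while the others highest in broilers had been higher there at each age. COL12A1 was 0.59 higher in broilers, as were COL14A1 by 1.12, COL8A1 by 0.87, FN1 by 0.63 and COL28A1 by 0.58. COL4A5 was at -1.25, NID1 at -0.73, LAMA2 at -0.69, COL4A6 at -0.53 and ELN at -0.46. At 8 w POSTN, COL1A1, COL1A2, COL12A1 and COL22A1 were lower in broilers with -0.66, -0.57, -0.53, -0.31 and -0.21. LAMA3, COL8A1, LAMB2, COL21A1 and COL17A1 were higher by 0.65, 0.48, 0.47, 0.45 and 0.35.

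A line difference at 1 age apart from the other ages was tested with a further term, in 1 fit for each age, and no member was called at any age. Each such term rests on 1 pool of each line. At 1 d 0.294% of all probe sets were called, at 4 w 0.0754% and at the other ages none. At an unadjusted p under 0.05 there were 5 members at 1 d and 1 each at 2 w and 4 w. There were 8 at 6 w and 4 at 8 w. Of all 38439 probe sets 3061, 1000, 1282, 2851 and 1615 were under it from 1 d to 8 w. Among members at 6 w the largest departures were 1.42 ± 0.32 for COL12A1, -1.20 ± 0.27 for COL4A5, -0.85 ± 0.21 for NID1 and -0.82 ± 0.22 for LAMA2 (adjusted p = 0.626 for each). COL28A1 also departed at 8 w, with a line difference of 0.05 there beside 0.58 to 1.25 at the other ages. At 1 d LAMB4 had 0.57 ± 0.13 (adjusted p = 0.198) and TNC -0.80 ± 0.21 (adjusted p = 0.273). At 8 w COL1A1 departed by -0.60 ± 0.17 (adjusted p = 0.997).

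Several members lie next to each other in the RefSeq gene order of assembly GRCg7b, namely COL4A1 and COL4A2, COL4A3 and COL4A4, COL4A5 and COL4A6, COL6A1 and COL6A2, COL3A1 and COL5A2, LUM and DCN, and LAMB1 and LAMB4. In 6 of the 7 pairs both genes were called higher at 1 d, as were 38 of all 58 members. Among these 6 pairs the widest gap was that of COL4A5 and COL4A6, 4.21 and 3.14, followed by COL5A2 and COL3A1 with 1.03 and 0.47. COL4A3 and COL4A4 were the exception, by the brightest COL4A3 probe set alone. Between the lines COL4A1 and COL4A2 differed by 0.37 each and COL6A1 and COL6A2 by 0.32 and 0.38. COL4A5 and COL4A6 had -0.30 and 0.04.

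Genes that make, bind and break down the matrix were read from 5 further lists, beside 17.9% of all probe sets called higher at 1 d and 17.1% lower. At 1 d the enzymes that fold and modify collagen had 11 of 26 called higher and 3 lower. Among the higher were PLOD2, a lysyl hydroxylase, with 1.83, CRTAP, of prolyl hydroxylation, with 1.80, P3H3, of the same enzyme family, with 1.03, SEC24D, of the export of procollagen, with 1.01 and P4HB, a subunit of prolyl hydroxylase, with 0.83 (adjusted p = 7.21e-05, 2.68e-05, 1.86e-05, 0.00312 and 0.00053). The median of the list was 0.15, beside -0.05 for all probe sets.

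Other matrix proteins of muscle had 27 of 43 called higher at 1 d and 3 lower, with a median of 0.74. The 5 largest were MATN2 with 3.18, the thrombospondin THBS2 with 2.96, fibromodulin (FMOD) with 2.30, FBN2, a fibrillin of development, with 2.27 and THBS4 with 1.74, all with an adjusted p at or under 0.000337. Matrix proteases and their inhibitors had 9 of 23 higher and 1 lower, led by the proteases of proteoglycans ADAMTS1 and ADAMTS5 with 1.55 and 1.46. The inhibitors SERPINE2, TIMP3 and RECK followed with 1.30, 1.18 and 1.13, and the adjusted p of these 5 was at most 0.00429.

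Matrix receptors had 11 of 26 called higher at 1 d and 3 lower. ITGA7, the laminin receptor of mature fibres, was lower with -1.22 and CD44, which binds hyaluronan, with -0.83. The syndecans SDC1 and SDC3 were higher with 1.08 and 0.83 and ITGB5 with 0.92 (adjusted p at most 0.00305). Regulators of the TGF beta family had 13 of 28 higher and 2 lower. MSTN, the myostatin that restrains muscle growth, was lowest at 1 d with -3.18, from pool means of 5.29, 8.01, 9.07, 8.74 and 9.00 in broilers and 5.11, 7.70, 8.44, 7.96 and 8.13 in layers. FST, an inhibitor of myostatin, had 2.16, TGFBR3 1.88, CCN2, a matrix growth factor, 1.83 and PDGFD 1.60 (adjusted p at most 0.000842).

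Between the lines 2 of the 145 genes of the 5 lists were called, or 1.38%, which is near the 1.35% of all probe sets. SMOC2, a matrix protein related to SPARC, was higher in broilers by 0.68 ± 0.12 and SPON2 was lower by -0.53 ± 0.09 (adjusted p = 0.0358 and 0.0294). From 2 w to 8 w SPON2 and MGP, an inhibitor of mineralisation, had slopes of -0.24 ± 0.02 and -0.11 ± 0.02 per week (adjusted p = 0.00502 and 0.0373). In the lists with no call between the lines, the 2 largest differences were -0.52 for PCOLCE2 and 0.40 for PLOD2 among the enzymes and -0.44 for MMP15 and -0.36 for MMP13 among the proteases. Among the receptors they were 0.40 for SGCB and 0.38 for ITGA7, and among the regulators 0.55 for MSTN and 0.48 for TGFB3.

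**Figure D5:**
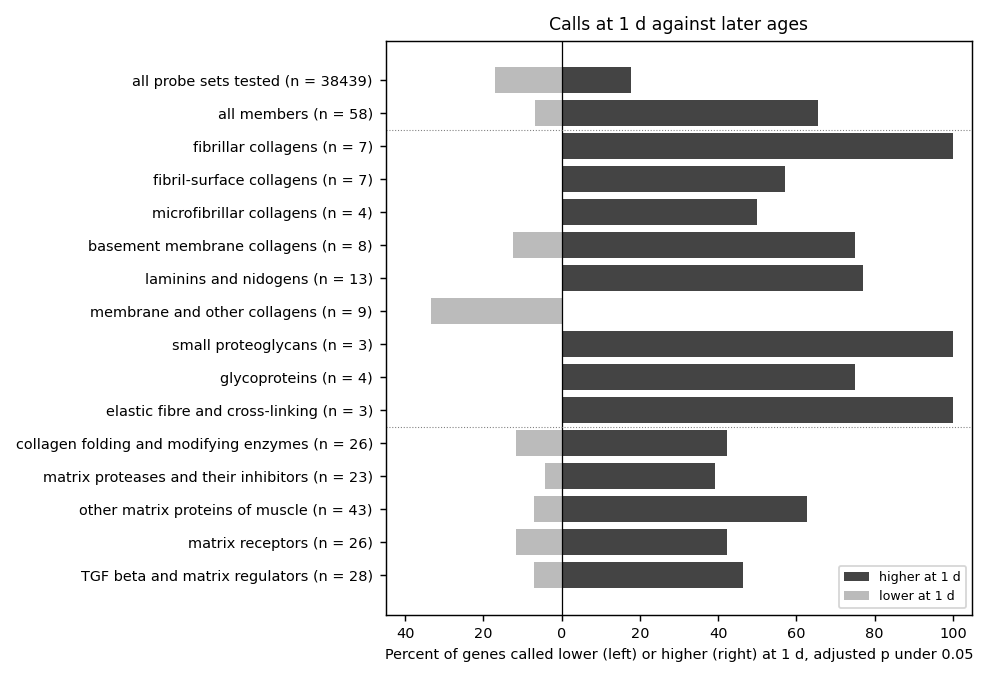
Percent of genes called higher (dark, right) or lower (light, left) at 1 d than at later ages, for all probe sets, all 58 members, the members by role and 5 further lists. The fibrillar collagens, small proteoglycans and elastic fibre genes reach 100% on the right, and the membrane and other collagens have bars on the left only.

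Markers of other cells were read at 1 d as well. Over all probe sets 17.9% were called higher at 1 d and 17.1% lower, and above the median signal 26.8% and 22.7%. Among 12 markers of fibroblasts 4 were higher at 1 d and 1 lower, with PRRX1 at 1.74 and PDGFRA at 1.18. Of the 12 markers 8 had a value above 0, and the median was 0.14. The summed linear signal of the 12 was 4349 and 4069 at 1 d in broilers and layers. These sums lay within the range of 3619 to 6068 of the later pools. Of 7 tendon markers 4 were higher, led by TNMD, a membrane protein of tendon cells, with 2.93, and the sum was 1949 and 2373 against 1131 to 1546 later. TNMD also fell from 2 w to 8 w, by 0.21 per week (adjusted p = 0.0164). Cartilage and bone markers had 7 of 19 higher and 1 lower.

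Dividing cells had 16 of 17 markers higher at 1 d and none lower, with sums of 2711 in broilers and 1966 in layers against 903 to 1430 later. Schwann cell and nerve markers had 4 of 8 higher, with sums of 3999 and 3278 against 625 to 1387. Immune cell markers had 12 of 14 lower, with sums of 1218 and 1447 against 2813 to 5694, and fibre markers had 6 of 12 lower, with 78406 and 74415 against 84069 to 90271. Of endothelial markers 4 of 16 were higher and 1 lower, of smooth muscle and pericyte markers 2 and 3 of 8, and of satellite cell markers 2 and 1 of 9. The shares called higher in these lists are near that of all probe sets above the median signal. Sums of these markers at 1 d lay within the range of the 8 later pools, except 1448 for smooth muscle and pericytes in broilers, below a lowest later value of 1451. Adipocyte markers had 3 of 8 higher and 2 lower, with sums of 3870 and 4524 against 1173 to 1848 later. Genes that respond to fasting had 8 of 16 higher and 2 lower, with 17742 and 20158 against 4025 to 13903. The part of these cells in the matrix genes' change with age was not tested. Between the lines 14 of 16 endothelial, 7 of 8 adipocyte and 16 of 17 dividing cell markers had a value above 0 in broilers, with medians of 0.15, 0.20 and 0.34. Of the cartilage and bone markers 4 of 19 had, with a median of -0.27, and of all probe sets 51.8%. One fibre marker, MYLPF, was called higher in broilers, one fasting gene, CEBPB, lower, and 2 dividing cell markers, SMC4 and INCENP, were called.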

How the data were processed

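The deposited table holds log2 signals that the authors made with RMA, which corrects background, quantile normalizes and summarises probes. Their MAS5 present calls were not used here. For RMA and MAS5 the version is not given in the sources used here. Controls (96 of 38535 probe sets) were left out. In the annotation 27168 of the rest had 1 symbol, 177 had several and 11094 had none. The members and gene lists were chosen with earlier results of these data known, so that counts over them are descriptions. All 58 members matched a gene of the same symbol in RefSeq (assembly GRCg7b), from which names and gene order were taken.

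Values were averaged over the 3 arrays of a pool. Linear models with terms for line and for each age were fitted to the 10 means with limma (version 3.58.1, R 4.3.3). An intensity trend was used in eBayes, with Benjamini-Hochberg adjustment over 38439 probe sets. The difference at 1 d and the slope over the 8 later pools were contrasts of the age terms. A line difference at 1 age took a further term, in 1 fit for each age. A gene is "called" at an adjusted p under 0.05. The number of arrays and pools limits the precision, since depth does not apply. The fits were tested on simulated data.

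Named were members at that threshold in any fit, else the 3 largest of a fit, the 12 brightest members and the 5 largest line differences in each direction at each age. Of each other list those at the threshold were named, at most 5 in a fit, or else the 2 largest. Other members are given with their role. Alternatives covered the unit of replication, the array number as a block, the methods' analysis of variance, scaling, dim probe sets left out, the age term, the variance prior, the probe set chosen, each line alone, and each array number and age left out.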

Additional observations from a re-analysis of the deposited data

How the results depend on the processing

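Of the 42 members called at 1 d, 21 were called under every one of the 18 alternatives that held their probe set. LAMB4 and COL27A1, below the median signal, were not in the fit to probe sets above it. Under the 15 alternatives that kept both lines and the brightest probe set, 38 of the 42 kept their call wherever they were tested. COL4A2, COL27A1, COL17A1 and LAMA3 each lost it under at least 1. With the broiler pools alone 27 members were called, and 15 of the 42 calls were lost. COL13A1 turned to 0.080 with the mean over all its probe sets, which disagree in direction.

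Between the lines, where none was called, 18 members were called with 30 arrays as independent samples and 17 with the pool as a random block, beside 10.4% and 8.86% of all probe sets. With the replicate block 19 were called, beside 11.5%. These 3 fits count the arrays of a pool as samples. No label ties arrays of the same number. Their deviations in different pools had a median correlation of 0.14, from -0.39 to 0.53, and those of different numbers -0.07. In 3 members, COL6A2, COL5A1 and ELN, 1 array number was the highest or lowest in at least 9 of the 10 pools, such as array 3 of COL6A2, the lowest in all 10. Each pool mean holds all 3 numbers. FN1 alone was called with quantile normalization repeated, beside 256 of all 38439 probe sets called higher and 273 lower in broilers. It was also the only member called with probe sets above the median signal, beside 209 higher and 256 lower of 19219. The same held with a robust prior, beside 268 higher and 308 lower. Without the pools of 8 w COL28A1 alone was called, beside 109 higher and 106 lower. Without the pools of 1 d there were 2, beside 1.98% of all probe sets. Leaving out 1 array number gave 0 to 1, beside 135 to 249 probe sets higher and 159 to 354 lower. The methods' analysis of variance also counts the 30 arrays as samples. At an unadjusted p under 0.01 and 1.5-fold it called 1 member, COL28A1, beside 240 probe sets higher and 290 lower in broilers of all 38439. After Benjamini-Hochberg adjustment with no fold limit it called 17 members, 13 of them higher in broilers. The share of all probe sets at that adjusted threshold was not counted, and 7925 had an unadjusted p under 0.05.

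For the slope, COL4A5 alone was called by its brightest probe set. In the same 3 fits to arrays (independent, random block, replicate block) 15, 14 and 15 members were called, beside 5.14%, 4.09% and 6.06% of all probe sets. With a robust prior 2 members were called, where 77 of the 38439 probe sets were called rising and 63 falling. None was called without the intensity trend, with either line alone or with the mean over probe sets. Leaving out 1 array number gave 1 to 2, beside 58 to 75 probe sets rising and 48 to 69 falling. A line difference at 1 age apart from the others was called for no member under any of the 8 alternatives run. Otherwise the cause of these changes was not tested. Dim members limit what can be seen: 6 of 58 lie below the median signal. Others were dim in single pools. COL4A5 was at 3.85 in broilers at 6 w and COL14A1 at 4.09 in layers at 4 w, beside array medians of 4.08 to 4.19.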

Other observations

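Of the cartilage collagens left out of the group, COL11A1, a minor fibrillar chain, was high at 1 d in both lines. Its pool means from 1 d to 8 w were 8.72, 6.57, 4.58, 4.74 and 4.53 in broilers and 9.74, 7.01, 6.15, 4.46 and 5.55 in layers, a difference of 3.78 (adjusted p = 1.41e-05). COL9A3, of the cartilage fibril surface, was at 6.25 in layers at 1 d, 3.36 in broilers at 1 d and 2.75 to 3.04 in the later pools. Other cartilage and bone genes had the same single high pool. The layer pool at 1 d and the broiler pool at 1 d were at 6.76 and 2.89 for MATN3, 4.99 and 2.28 for HAPLN1 and 6.07 and 3.43 for IBSP. COL2A1, the main cartilage collagen, was at 6.21 and 5.91, beside 5.90 to 6.32 in the later pools.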
